A study of Homo sapiens with 2 samples.

Results

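The genes described here are 10 genes of blood vessel growth signalling: the ligands VEGFA, VEGFB, VEGFC and PGF, the co-receptors NRP1 and NRP2, the ephrin pair EPHA2 and EFNA1, and the secreted factors ANGPTL4 and PDGFA. They were taken by gene name, and each was on 1 of the 31798 rows of the deposited table. The libraries came from HCT116, an established human colorectal cancer line, and there was 1 library per group. One was labelled as an SRD5A1 knockdown, with the tag Dox, and the other as a control, with the tag KD. The labels explain neither tag, and they do not say how SRD5A1 was lowered or whether the control carried the same construct.

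Vascular endothelial growth factors are secreted dimers that bind the receptor tyrosine kinases FLT1, KDR and FLT4 on endothelial cells. VEGFA, made by many tumour cells and induced by hypoxia through HIF, acts mainly through KDR, VEGFB and PGF bind FLT1, and VEGFC acts through FLT4 on lymphatic vessels. Neuropilins are co-receptors for VEGF ligands and for class 3 semaphorins. EPHA2 is a receptor tyrosine kinase and EFNA1 is its membrane-anchored ligand. ANGPTL4 inhibits lipoprotein lipase and is a target of PPAR and HIF factors, and PDGFA is a ligand of PDGFRA.

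SRD5A1, the steroid 5-alpha reductase named in the label, was at 6.25 FPKM (3119 counts) in the knockdown library against 10.8 FPKM (4101 counts) in the control. The libraries held 54740670 and 41814981 deposited counts, and of these mitochondrially encoded genes took 12.8% and 18.3%. Epithelial markers were high in both (all 6 of EPCAM, KRT8, KRT18, KRT19, CDH1 and CLDN7 expressed, 1601 and 1100 FPKM summed in the knockdown and the control). Of 8 endothelial markers 6 had a row and none of these reached 1 FPKM (0.278 and 0.117 summed), and CDH5 was at 0 in both libraries. Of 6 fibroblast markers 1 was expressed, COL1A1 (1537 and 1976 counts), with 3.17 and 4.26 FPKM summed and DCN at 0. COL3A1 (263 and 39 counts) and COL1A2 (88 and 18 counts) did not reach a mean of 1 FPKM and went the other way from COL1A1. Of 4 blood cell markers 1 was expressed, CD68 (183 and 843 counts), with 1.29 and 7.86 FPKM summed and CD3E at 0. The extraction protocol speaks of adipose material, which is not the labelled cell line. Of 4 adipocyte markers 1, PLIN1, had a row, with 0 and 61 counts. The part of these marker differences in the results was not tested.

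FPKM are fragments scaled to gene length and library size, and CPM are counts scaled to the library total alone, per 1000000 counts. Genes with a mean of at least 1 FPKM over both libraries were taken as expressed, which held for 10143 symbols and for 7 of the 10 genes. NRP1, NRP2 and VEGFC fell below. Differences are in log2(FPKM + 1), knockdown minus control, a scale that understates the difference of low genes. With 1 library per group there is no test and the spread between cultures is unknown. Deposited counts piled up at 4, 8 and 12 (1180 rows of the knockdown library at 4, against 394 at 3 and 234 at 5), so 1 fragment may have given about 4 counts. The 95% intervals of CPM ratios are therefore exact Clopper-Pearson intervals on counts divided by 4, and they cover counting error only. The divisor of 4 is an assumption. In the knockdown library the excess was weaker at 16 (185 rows, against 142 at 15) and absent at 20 (82, against 203 at 19). Counts of 1 and 2 were also common there (696 and 655 rows). In bulk libraries, fewer cells of a type and less RNA per cell cannot be told apart.

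Promoter windows from RefSeq (GRCh38.p14, 250 bases before to 50 after the start) matched 8 of the 10 genes, VEGFA and NRP1 being the others. Those of the genes furthest from equal on each side, and of EFNA1 as partner of EPHA2, are shown 5′ to 3′ on the strand of the gene. Capitals mark the HIF core ACGTG, the GC box GGGCGG, the cAMP response element TGACGTCA and the TATA box TATAAA, searched on both strands, where neighbouring matches may overlap. The windows lie at chr11:64234334-64234633 (plus strand) for VEGFB, chr19:8363905-8364204 (plus) for ANGPTL4, chr1:16156020-16156319 (minus) for EPHA2, chr1:155127626-155127925 (plus) for EFNA1 and chr2:205682251-205682550 (plus) for NRP2.
VEGFB: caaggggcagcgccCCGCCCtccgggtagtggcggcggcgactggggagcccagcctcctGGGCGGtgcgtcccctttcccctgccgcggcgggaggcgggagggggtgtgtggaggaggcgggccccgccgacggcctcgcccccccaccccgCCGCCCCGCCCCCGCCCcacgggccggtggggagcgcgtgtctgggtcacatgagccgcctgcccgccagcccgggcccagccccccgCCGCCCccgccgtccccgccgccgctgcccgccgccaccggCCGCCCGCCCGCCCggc
EFNA1: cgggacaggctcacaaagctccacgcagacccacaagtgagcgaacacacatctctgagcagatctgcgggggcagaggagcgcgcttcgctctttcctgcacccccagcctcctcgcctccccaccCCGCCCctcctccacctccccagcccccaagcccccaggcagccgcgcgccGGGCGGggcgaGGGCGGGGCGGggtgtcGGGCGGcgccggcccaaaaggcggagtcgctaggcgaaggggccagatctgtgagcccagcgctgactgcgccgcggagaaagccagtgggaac
EPHA2: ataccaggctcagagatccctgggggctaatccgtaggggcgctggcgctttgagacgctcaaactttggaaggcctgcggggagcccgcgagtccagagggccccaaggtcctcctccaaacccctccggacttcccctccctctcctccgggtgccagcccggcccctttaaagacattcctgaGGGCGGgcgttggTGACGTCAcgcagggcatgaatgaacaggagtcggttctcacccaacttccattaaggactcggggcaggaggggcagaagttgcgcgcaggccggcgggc
ANGPTL4: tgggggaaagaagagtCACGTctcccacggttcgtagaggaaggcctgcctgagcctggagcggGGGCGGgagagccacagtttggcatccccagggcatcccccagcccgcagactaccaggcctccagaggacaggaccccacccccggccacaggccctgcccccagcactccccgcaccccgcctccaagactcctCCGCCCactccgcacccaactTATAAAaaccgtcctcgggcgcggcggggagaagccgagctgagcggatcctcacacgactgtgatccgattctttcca
NRP2: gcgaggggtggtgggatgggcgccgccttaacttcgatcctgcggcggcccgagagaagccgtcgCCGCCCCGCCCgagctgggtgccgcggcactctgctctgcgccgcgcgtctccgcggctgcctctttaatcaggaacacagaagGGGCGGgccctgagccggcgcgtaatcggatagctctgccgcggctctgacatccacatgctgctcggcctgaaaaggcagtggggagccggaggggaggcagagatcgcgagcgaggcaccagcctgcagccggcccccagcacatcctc

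All 8 windows held a GC box, which 45.0% of all 35116 windows hold, from 1 in EPHA2 and 2 in ANGPTL4 to 5 in EFNA1 and 9 in VEGFB. The VEGFB window was 84.7% G and C, more than 99.7% of all windows. The lowest of the 8, EPHA2, was 64.3% G and C, against a median of 58.7% over all windows. The share with a GC box was not compared at like base composition. ANGPTL4 alone among the 8 held the HIF core (21.4% of all windows) and a TATA box (11.5%), and EPHA2 alone held the cAMP response element (1.85%). These matches are a description of letters, and no binding was measured. The transcription start within the ANGPTL4 window lay 866 bases, and that within the NRP2 window 511 bases, from the 5′ end of the deposited gene.

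Among the VEGF ligands, VEGFA and VEGFB had higher CPM and PGF was not apart from equal CPM beyond counting error, while VEGFC was not detected. The median CPM ratio of all symbols with at least 100 counts was itself 1.28. The intervals of VEGFA and VEGFB lay above that median, and the interval of PGF lay below it. VEGFA (ENSG00000112715, GRCh38 chromosome 6, 43770184 to 43786487, plus strand, 32 annotated transcripts) was at 4.15 FPKM (3926 counts) in the knockdown library, above the 2.72 FPKM (1971 counts) of the control. Its CPM ratio was 1.52 (1.36 to 1.70) and its difference 0.47. VEGFB (ENSG00000173511, chromosome 11, 64234538 to 64238793, plus strand) was at 14.2 FPKM (1435 counts) and 8.92 FPKM (689 counts), a ratio of 1.59 (1.32 to 1.92) and a difference of 0.62. PGF, placental growth factor (ENSG00000119630, chromosome 14, 74941834 to 74955626, minus strand), went the other way, at 1.91 FPKM (727 counts) and 2.34 FPKM (680 counts). Its ratio of 0.817 had an interval of 0.659 to 1.01, which reaches 1. VEGFC (ENSG00000150630, chromosome 4, 176683538 to 176792922, minus strand) had 0 counts in both libraries, which allows up to 3 fragments, taken as 12 counts, or 0.219 CPM in the knockdown library and 0.287 CPM in the control.

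Ratios between genes of 1 library do not depend on how the libraries are scaled. VEGFB stood to VEGFA nearly alike in both libraries, at 3.42 times its FPKM in the knockdown and 3.27 times in the control. VEGFA stood at 2.18 times the FPKM of PGF in the knockdown and 1.17 times in the control, and VEGFB at 7.45 and 3.82 times. PGF therefore made up 9.40% of the summed FPKM of these 3 ligands in the knockdown library, against 16.7% in the control. Per kilobase of a single reference transcript, described next, PGF was at 6.89 of a summed 46.2 CPM (14.9%) in the knockdown library and at 8.44 of 33.7 CPM in the control, and VEGFB stood at 2.76 and 1.41 times PGF.

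The order of VEGFA and VEGFB turned with the length behind the level. Over the 8906 rows that reached 200 counts in each library, the length implied by counts and FPKM was 1.19 times the union of all annotated exons (5th to 95th percentile 1.14 to 1.23). For VEGFA that union spans 14431 bases and includes a retained-intron transcript of 12167 bases, while its longest basic protein-coding transcript, used as the reference transcript below, has 3535 bases. For VEGFB the values are 1545 and 1380 bases, and for PGF 5962 and 1927. Per kilobase of the reference transcript, VEGFA was at 20.3 CPM in the knockdown library against 13.3 CPM in the control, and VEGFB at 19.0 and 11.9. On that scale VEGFA made up 43.9% and VEGFB 41.1% of the 3 ligands in the knockdown library, against 20.5% and 70.1% by FPKM. Ratios between the libraries do not change with this choice.

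**Figure D1:**
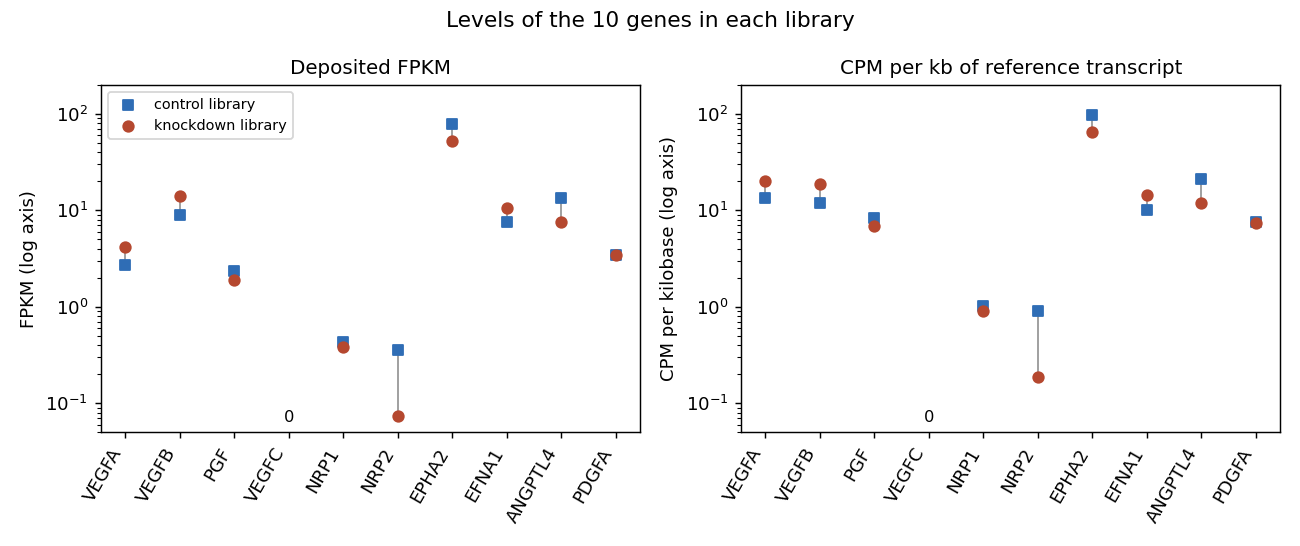
Level of each of the 10 genes in the control library (squares) and the knockdown library (circles), as deposited FPKM on the left and as CPM per kilobase of the reference transcript on the right, both on log axes. EPHA2 is the highest in both libraries on both scales, VEGFC is written as 0, and VEGFA lies below VEGFB on the left (4.15 against 14.2 FPKM in the knockdown library) but beside it on the right.

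Of the co-receptors, NRP2 was much lower in the knockdown library and NRP1 was not apart beyond counting error. NRP2 (ENSG00000118257, chromosome 2, 205681990 to 205798133, plus strand) was at 0.0733 FPKM (68 counts) in the knockdown library, far under the 0.355 FPKM (251 counts) of the control. Its CPM ratio of 0.207 (0.113 to 0.358) was the furthest from 1 of the 9 genes with counts. NRP1 (ENSG00000099250, chromosome 10, 33177492 to 33336262, minus strand) was at 0.380 FPKM (290 counts) and 0.428 FPKM (250 counts), a ratio of 0.886 (0.623 to 1.26). NRP1 stood at 5.18 times the FPKM of NRP2 in the knockdown library and at 1.21 times in the control. The pseudocount hides most of the NRP2 ratio: its difference was -0.34 in log2(FPKM + 1) and -1.39 with a pseudocount of 0.1. Both co-receptors are weakly expressed here, so NRP2 rests on 68 counts in the knockdown library, or about 17 fragments.

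The kinase receptors of the VEGF ligands were near 0 in both libraries, as were the endothelial markers. FLT1 had 0 counts in both. KDR had 8 counts, all in the knockdown library, FLT4 had 12 and 19 in knockdown and control, and the ligand VEGFD had 0 and 20. None of these 4 genes was expressed by the minimum of 1 FPKM, and no fold is given.

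EPHA2 was lower in the knockdown library, while its ligand EFNA1 was higher but near the median gene. EPHA2 (ENSG00000142627, chromosome 1, 16124337 to 16156069, minus strand) was the most abundant of the 10 genes, at 52.1 FPKM (14096 counts) in the knockdown library against 77.8 FPKM (16079 counts) in the control. Its CPM ratio was 0.670 (0.640 to 0.701) and its difference -0.57. EFNA1 (ENSG00000169242, chromosome 1, 155127876 to 155134899, plus strand) was at 10.7 FPKM (1517 counts) and 7.59 FPKM (822 counts), a ratio of 1.41 (1.19 to 1.68) and a difference of 0.45. The EFNA1 interval spans 1.28, the median ratio of all symbols with at least 100 counts, and 56.8% of expressed symbols had a lower difference. The receptor stood at 4.86 times the FPKM of the ligand in the knockdown library, against 10.2 times in the control. An antisense gene that overlaps EPHA2 over 859 bases had 19 and 35 counts, few beside those of EPHA2.

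ANGPTL4 was lower in the knockdown library and PDGFA was near equal under the deposited scaling. ANGPTL4 (ENSG00000167772, chromosome 19, 8363289 to 8374370, plus strand) was at 7.60 FPKM (1232 counts) in the knockdown library against 13.6 FPKM (1678 counts) in the control. The CPM ratio was 0.561 (0.483 to 0.651) and the difference, -0.76, the lowest of the 7 expressed genes. PDGFA (ENSG00000197461, chromosome 7, 497258 to 520208, minus strand) was at 3.46 FPKM (941 counts) and 3.48 FPKM (724 counts), a ratio of 0.993 (0.814 to 1.21), an interval that spans equality but lies below 1.28, the median ratio of all symbols with at least 100 counts.

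**Figure D2:**
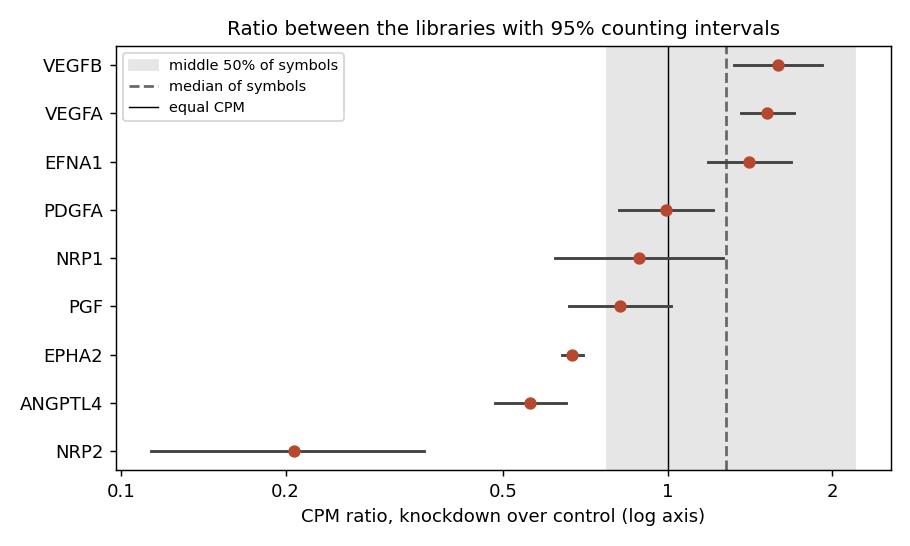
CPM ratio of knockdown over control (log axis) for the 9 genes with counts in both libraries, with bars for 95% counting intervals. The grey band holds the middle 50% of 13613 symbols with at least 100 counts (0.774 to 2.20), the dashed line is their median of 1.28, and NRP2, ANGPTL4 and EPHA2 lie below the band.

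Set among all genes, VEGFA, VEGFB and EFNA1 lay above the median gene and the other 6 genes with counts lay below it by CPM ratio, though the interval of EFNA1 (1.19 to 1.68) spans the median ratio of 1.28. Of the 7 expressed genes, 1 (VEGFB) was higher by at least 0.5, against 40.8% of all expressed symbols, and 2 (EPHA2 and ANGPTL4) were lower by at least 0.5, against 16.3%. The other 4 lay between, as did 42.9% of all expressed symbols. None was at least 2-fold apart, which 20.9% of expressed symbols were as higher and 6.83% as lower. The median difference of the 7 was -0.01, while that of all expressed symbols was 0.30, so a gene at 0 lies below most others. VEGFA, VEGFB and EFNA1 exceeded that median by 0.17, 0.32 and 0.15, and 57.8%, 64.3% and 56.8% of expressed symbols had a lower difference. ANGPTL4 and EPHA2 lay below it by 1.06 and 0.87 on the same scale, with 10.4% and 14.5% of symbols lower still. Over the 13613 symbols with at least 100 counts and a count in each library, 2.97% had a lower CPM ratio than NRP2.

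**Figure D3:**
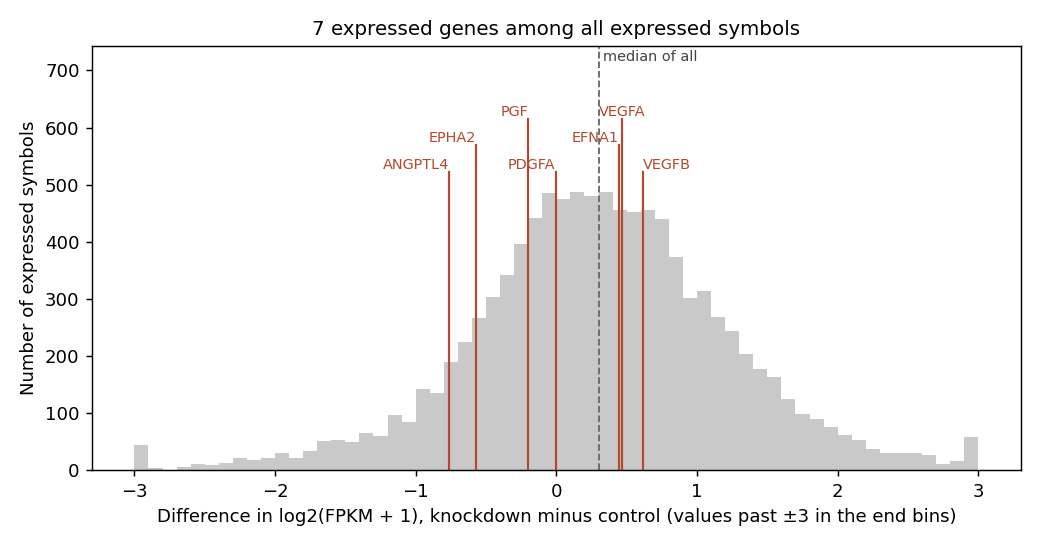
Number of expressed symbols by difference in log2(FPKM + 1), knockdown minus control (grey bars), with the 7 expressed genes as red lines and the median of all symbols, 0.30, dashed. VEGFA, EFNA1 and VEGFB lie just right of the dashed line and the other 4 genes left of it, ANGPTL4 at -0.76.

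Scaling moved how high VEGFA, VEGFB and EFNA1 appeared. With the median ratio of expressed genes set to 1, which moves the median of all expressed symbols by -0.30, VEGFA was at 0.18, VEGFB at 0.27 and EFNA1 at 0.11, and ANGPTL4 and EPHA2 at -1.10 and -0.94. Of all expressed symbols 27.8% were then higher and 26.7% lower by at least 0.5, in place of 40.8% and 16.3%. PDGFA then lay at -0.30 and PGF at -0.46, both beyond their counting intervals around the main value. With TMM factors VEGFA, VEGFB, EFNA1, ANGPTL4 and EPHA2 were at 0.27, 0.38, 0.22, -0.99 and -0.82. Differences also varied with the base composition of transcripts: the median difference was 0.06 among the 2027 symbols lowest in G and C and 0.46 among 2026 with 55.4% to 60.4% G and C. With that trend and the one over length removed, VEGFA was at 0.39, VEGFB at 0.46, EFNA1 at 0.30, level with the median of all expressed symbols, EPHA2 at -0.74 and ANGPTL4 at -0.94.

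**Figure D4:**
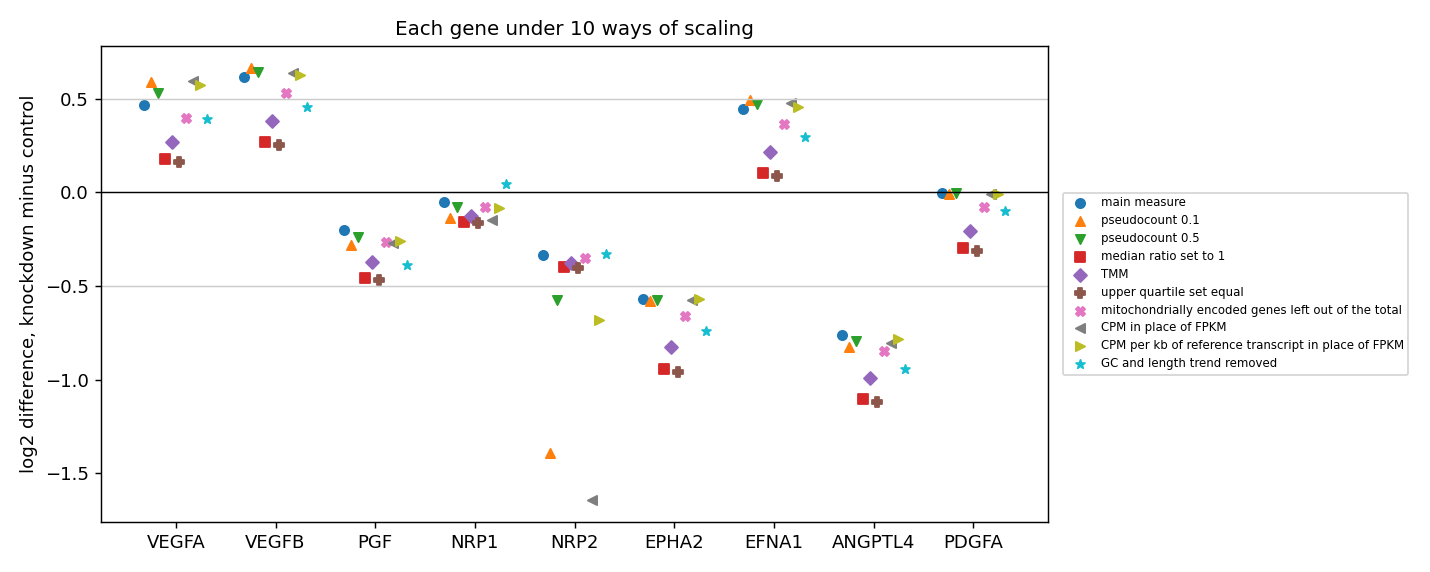
Log2 difference, knockdown minus control, of the 9 genes with counts under the main measure and 9 alternatives (one marker each), with grey lines at 0.5 and -0.5. VEGFA, VEGFB and EFNA1 stay above 0 in all, ANGPTL4 and EPHA2 stay below -0.5 in all, and NRP1 crosses 0 once, at 0.04 with the trend over GC content and length removed.

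The genes around these 10 were followed in 12 lists by role. Counts below are of expressed members at least 0.5 higher or lower, to be read against 40.8% and 16.3% of all expressed symbols. Under the alternatives tried, the median of every list with expressed genes kept its sign against 0. The median of all expressed symbols moved too, from 0.30 in the main measure to -0.02 with the upper quartile set equal. A kept sign therefore does not set a list apart from all genes.

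Semaphorins and plexins, the other partners of neuropilins, had 2 of 6 expressed genes at least 0.5 higher. This share (33.3%) lies near that of all expressed symbols (40.8%), and the number was 1 to 3 over the alternatives. None of the 6 was as much lower, and the median difference was 0.45, against 0.30 for all expressed symbols. The ligand SEMA3C, below the minimum of 1 FPKM, was lower, with 100 against 295 counts and a CPM ratio of 0.259 (0.158 to 0.412). The ligand SEMA3G was at 3.06 against 0.911 FPKM in the control (1.09), the receptor PLXNA1 at 9.44 against 5.13 FPKM (0.77) and the ligand SEMA3B at 3.76 against 2.37 FPKM, just short of 0.5.

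Of the other A-type ephrins and their receptors, 4 of 5 expressed genes were higher with a median difference of 1.14, and 3 of 5 with a median of 0.52 once EFNA4 was summed with an overlapping readthrough gene. EFNA3 was under 0.5 (0.23) in either case. EPHA1 was at 15.2 against 6.33 FPKM (1.14) and EPHA10 at 1.88 against 0.221 FPKM (1.24). EPHA1 overlaps ZYX on the other strand over 823 bases, and ZYX had 13936 and 12215 counts, so without stated strand use some reads cannot be told apart. EFNA4 was at 13.1 against 0.213 FPKM (3.54), but this value is uncertain. A readthrough gene on the same strand, AL691442, overlaps it and had 658 counts in the control library and 0 in the other, and for the 2 rows summed the ratio was 1.22 (1.003 to 1.49) in place of 58.6 and the difference 0.02.

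B-type ephrins and receptors split. Of 6 expressed genes 3 were higher and 2 lower. The receptor EPHB4 was at 28.0 against 11.2 FPKM (1.24) and its ligand EFNB2, an arterial marker in vessels, at 7.19 against 2.49 FPKM (1.23), while the receptor EPHB3 was at 4.91 against 13.4 FPKM (-1.28). EPHB4 overlaps SLC12A9 on the other strand over 704 bases (3342 and 869 counts).

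Of the other PDGF genes, 1 of 5 was expressed. PDGFB was at 6.16 against 3.16 FPKM (0.78), with 1515 against 595 counts. The receptor PDGFRA had 0 counts in both and PDGFRB 30 and 34. None of the 10 angiopoietins, angiopoietin receptors and other angiopoietin-like genes with a row reached a mean of 1 FPKM.

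VHL, HIF1AN and EGLN2, which restrain HIF, were higher, as was ARNT2 (1.49 against 0.539 FPKM, 0.69). CITED2, which competes with HIF for a coactivator, was lower (-1.05). Of 8 expressed genes of HIF control 4 were higher and 1 lower. VHL, which marks HIF for degradation, was at 10.4 against 2.10 FPKM (1.88). HIF1AN, an asparaginyl hydroxylase that blocks HIF activity, was at 10.4 against 1.35 FPKM (2.27), though NDUFB8 overlaps it on the other strand over 929 bases (9369 and 4304 counts). EGLN2, a prolyl hydroxylase, was at 9.24 against 0.722 FPKM (2.57). Its readthrough gene RAB4B-EGLN2 had 21 and 378 counts, and summed with it the ratio was 4.93 (4.16 to 5.88) in place of 12.6. HIF1A was at 1.38 against 2.08 FPKM (-0.37) and EPAS1 at 11.1 against 9.36 FPKM (0.22, negative in 3 alternatives).

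Genes that hypoxia induces leaned lower, with some higher. Among 10 expressed genes, 2 (20%) were higher, 4 (40%) were lower and the median difference was -0.36. The glucose transporter SLC2A1 (2.74) and the kinase and phosphatase PFKFB4 (5.25 against 1.68 FPKM, 1.22) were higher. NDRG1 (-1.99), P4HA1 (-1.11), BNIP3L (-0.61) and PFKFB3 (-0.57) were lower. ANGPTL4 was lower too (-0.76), while VEGFA (0.47) fell short of 0.5.

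Of the PPAR factors and targets around ANGPTL4, 5 of 6 expressed genes were higher and 1 was lower (median difference 1.02), while ANGPTL4 itself was lower. PPARG had 1787 against 510 counts (1.12), its partner RXRA at 10.3 against 4.43 FPKM (1.05) and the lipid droplet protein PLIN2 at 5.35 against 1.66 FPKM (1.26). The lower gene was PPARD, with 5856 against 6462 counts (-0.51). Below the minimum of 1 FPKM, PDK4 was lower as well (55 against 104 counts, a CPM ratio of 0.404). PPARA, also below it, was higher (776 against 415 counts, a ratio of 1.43).

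Of 6 expressed genes that process growth factors or matrix, 3 were higher and 0 lower, and the number lower reached 1 in the alternatives. The median difference was 0.34, near the 0.30 of all expressed symbols. FURIN, a protease that cleaves VEGFC and PDGF precursors, was at 34.5 against 16.6 FPKM (1.02). The related PCSK7 was at 1.81 against 0.712 FPKM (0.71), and TAGLN overlaps it on the other strand (146 and 387 counts). PLAU, the urokinase protease, was at 38.7 against 13.1 FPKM, a CPM ratio of 2.96 (2.68 to 3.28).

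Angiogenesis inhibitors and other angiogenic factors both leaned lower. Of 6 expressed inhibitors 1 was higher and 3 were lower (median difference -0.29). THBS1, the matrix protein thrombospondin, was at 0.320 against 2.47 FPKM (-1.39), TIMP3, a metalloproteinase inhibitor, at 0.959 against 3.71 FPKM (-1.27) and SERPINF1 at 2.77 against 0.920 FPKM (0.97). Among 8 other factors, 2 were higher, 4 were lower and the median difference was -0.52. HBEGF, an EGF receptor ligand, was at 2.51 against 15.7 FPKM (-2.25). The thymidine phosphorylase TYMP was at 26.3 against 7.09 FPKM (1.76) and the chemokine CXCL1 at 4.30 against 0.639 FPKM (1.69). TYMP overlaps SCO2 on the same strand (424 and 6 counts).

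**Figure D5:**
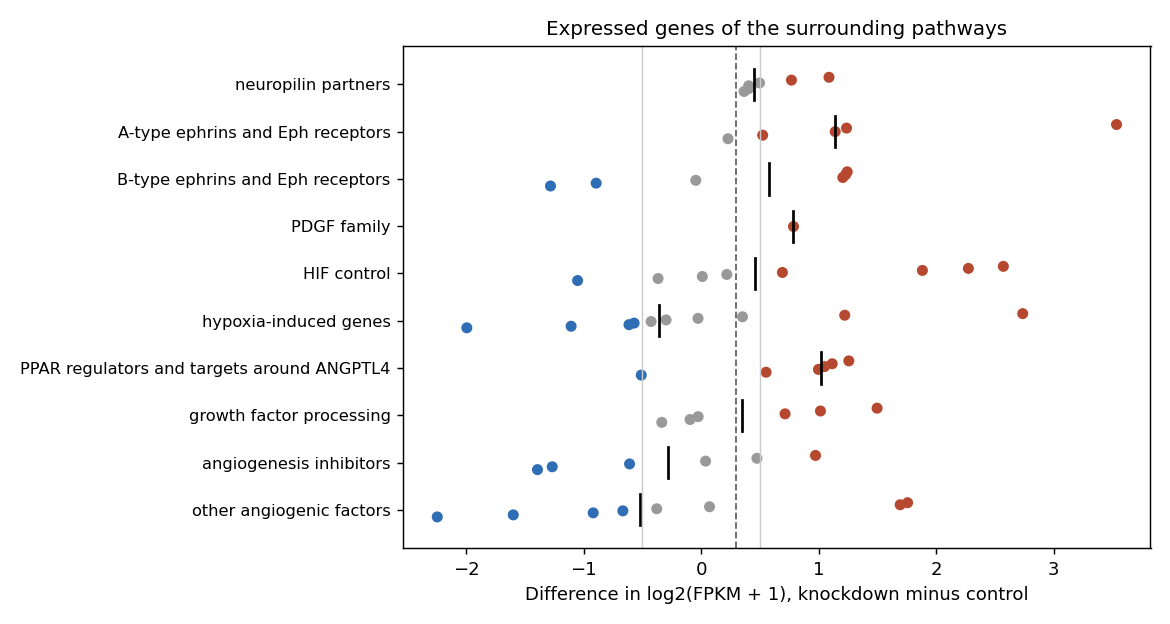
Difference in log2(FPKM + 1), knockdown minus control, of each expressed gene (points) in the 10 lists that hold any, with the list median as a black bar, 0.5 and -0.5 as grey lines and the median of all expressed symbols dashed. Red points are at least 0.5 higher and blue points at least 0.5 lower; the PPAR list has its median at 1.02 and the other angiogenic factors at -0.52.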

How the data were processed

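Poly(A) RNA of HCT116 was sequenced as paired ends, per the labels' protocols. The submitters' processing notes name Bowtie 0.12.2, HISAT2 2.0 and StringTie 1.3.0 with no role or order, and a mouse build. The deposited rows carry human Ensembl identifiers, and 69.3% of the 31659 rows found in GENCODE 29 have its GRCh38 position. How reads were counted, and whether by strand, is not given in the sources used here.

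FPKM and whole-number counts per gene stand side by side in the deposited table, per the file headers. Values were summed over rows with the same symbol (28615 symbols). FPKM with a pseudocount of 1 gave the differences, and counts gave CPM ratios, depth (54740670 and 41814981) and intervals. The design had assumed FPKM as the main unit. The low deposited counts cluster at 4, 8 and 12, more weakly at 16 and not at 20, and the reason was not tested. TMM factors came from edgeR 4.0.16, other steps from Python 3.11.15, numpy 2.4.6, pandas 2.3.3 and scipy 1.17.1. Reference transcripts were the longest basic protein-coding ones in GENCODE 29. The genes named were the 10 genes, SRD5A1 and up to 3 expressed genes per list with the largest absolute difference. FLT1, KDR, FLT4, VEGFD, PDGFRA, PDGFRB, EFNA3, HIF1A, EPAS1, CITED2, PPARD, the markers and the overlapping genes were named outside this rule, after their values were seen. So were ARNT2, P4HA1, BNIP3L, PFKFB3, SEMA3C, PDK4 and PPARA. Members and lists were chosen with earlier results of these data known. Alternatives covered pseudocounts, filters, scaling, units and the trend over GC content and length.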

Additional observations from a re-analysis of the deposited data

How the results depend on the processing

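Among the expressed genes of the 10, the number higher by at least 0.5 was 1 and became 2 with a pseudocount of 0.1 or 0.5, with CPM and with CPM per kilobase of the reference transcript (an alternative chosen after seeing the data). It became 0 with the median ratio set to 1, with TMM, with the upper quartile set equal and with the trend over GC content and length removed. The number lower stayed at 2 in all alternatives, and so did the identity of both, since EPHA2 and ANGPTL4 ranged from -0.96 to -0.57 and from -1.12 to -0.76. The median difference, -0.01, was -0.30 with the median ratio set to 1 and -0.31 with the upper quartile set equal. It lay below the median of all expressed symbols by 0.31 in the main measure and by 0.30 with either of these, by 0.40 with the trend removed and by 0.08 with no filter on low values. SRD5A1, at -0.70, was at -1.03 with the median ratio set to 1, -0.93 with TMM, -1.05 with the upper quartile and -0.54 with the trend removed. For the single genes, 26 of the 81 values moved beyond their counting intervals, and no gene past 0.5 changed sign. The cause of these shifts was not tested. Intervals on the counts as deposited would be narrower (0.156 to 0.272 for NRP2, and 0.735 to 0.908 for PGF, which then excludes 1). No paired analysis was possible because each group has 1 library.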

Other observations

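The deposited annotation gives a wider view, by terms chosen after the files were read. Of 52 expressed genes annotated to angiogenesis, 22 were higher and 11 lower by at least 0.5, with a median difference of 0.30 (-0.05 to 0.34 over the alternatives). That share of higher genes, 42.3%, lies beside 40.8% over all expressed symbols. Of 14 expressed genes annotated to the VEGF receptor signalling pathway 5 were higher and 1 lower (median 0.19, -0.14 to 0.23). Genes annotated to the response to hypoxia had 21 of 36 higher and 5 lower (median 0.58, 0.27 to 0.70), and between 10 and 22 higher over the alternatives, while the shorter list of hypoxia-induced genes in the report had a median of -0.36. Of 31 expressed genes annotated to ephrin receptor signalling 15 were higher and 3 lower (median 0.47, 0.13 to 0.56), and between 9 and 17 higher over the alternatives. For angiogenesis that number lay between 16 and 24. These ranges go with a share over all expressed symbols that moved as well. It was 27.3% higher with the upper quartile set equal and 45.0% with a pseudocount of 0.1, in place of 40.8%.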
